A study of Mus musculus with 10 samples.

Results

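The genes described here encode the proteasome, the barrel-shaped protease that degrades most ubiquitin-tagged proteins of the cell. They were chosen by name: a gene was taken when its probe set carried a single annotated symbol made of Psm, a letter from a to g and a digit, and the brightest of its probe sets, by mean over the 10 arrays, stood for the gene. The rule took 49 of the 18193 genes on the array. Of these, 2 share only the name pattern. Psmc3ip encodes a cofactor of meiotic recombination and Psme3ip1 a protein that binds an activator subunit, so they are given apart. The other 47 are 19 genes of the core particle (Psma and Psmb), 23 of the regulatory particles (Psmc, Psmd and Psme), and 5 that encode the inhibitor Psmf1 and the core assembly chaperones Psmg1 to Psmg4. The name rule used no difference between the groups, but the proteasome genes were chosen with earlier results of these data known.

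RNA came from BMEL cells, an embryonic liver line of the mouse that is bipotential, able to form either hepatocytes or bile duct cells. All cells had been transfected with Oligofectamine. The antisense group (5 arrays) received a locked nucleic acid oligonucleotide against miR-30a, and the scrambled group (5 arrays) received a control oligonucleotide of scrambled sequence. The labels give no genetic change, no time after transfection and no line or clone name, and they do not say whether replicates were separate cultures. The p-values therefore reflect spread among these samples alone, and that spread may be technical. Total RNA of each sample was amplified, biotin-labelled and measured on an Affymetrix mouse array as log2 expression values. Knockdown of miR-30a itself was not analysed here.

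The question is how the transcripts of a large protein complex stood when this miRNA was targeted. The core particle is a stack of rings. Its outer rings of alpha subunits gate the entrance, and its inner rings of beta subunits carry the protease sites. The regulatory particle caps the core, and its ATPase ring unfolds substrates and threads them into the core while its non-ATPase subunits bind ubiquitin and remove it. Proteasome genes are often regulated together, and the membrane-bound factor Nfe2l1 raises their transcription when proteasome activity falls short. In cells exposed to interferon-gamma the inducible catalytic subunits Psmb8, Psmb9 and Psmb10 replace the constitutive ones and form the immunoproteasome.

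The mature sequences of the targeted hairpin show what the oligonucleotide was directed against. They are from RefSeq (GRCm38.p6), in 5′ to 3′ order, and the capitals mark the seed, bases 2 to 8, through which a miRNA mainly recognises its targets. The labels do not say which arm was targeted. The 5p arm lies at chr1:23272274-23272295 and the 3p arm at chr1:23272315-23272336, both on the + strand.
mmu-miR-30a-5p: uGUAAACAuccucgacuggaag
mmu-miR-30a-3p: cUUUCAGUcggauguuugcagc
Among the RefSeq names used here the 5p seed is shared by mmu-miR-30c-5p, mmu-miR-30e-5p and mmu-miR-384-5p. These names may not include every miRNA with this seed.

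Promoter sequences were read for the proteasome genes because these genes are known to share transcription factors. RefSeq promoters of 300 bases (250 before the transcription start and 50 after it, GRCm38.p6) were available for 39 of the 47 genes, as 41 promoters. Both strands were searched for 4 motifs, each of which could overlap another. The core of the antioxidant response element, TGACNNNGC, which Nfe2l1 is known to bind, stood in 6 promoters (14.6%), those of Psmb5, Psmb6, Psmc6, Psmd9, Psmd12 and Psme4, against 12.4% of all 32851 promoters, 14.3% of those of tested genes and 16.4% of those of tested genes with a mean log2 value of 10 or more. The windows below show it in 2 catalytic subunits, with the motif in capitals and 20 bases on either side, read along the gene's own strand. Psmb5 lies at chr14:54618014-54618062 on the - strand and Psmb6 at chr11:70525328-70525376 on the + strand.
Psmb5: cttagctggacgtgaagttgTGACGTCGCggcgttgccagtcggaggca
Psmb6: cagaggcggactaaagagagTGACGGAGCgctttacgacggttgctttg

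The core of ETS factor sites, CGGAAG, stood in 23 of the 41 promoters (56.1%), against 16.9% of all promoters, 28.5% of those of tested genes and 34.8% at a mean of 10 or more. It was found in 16 of 21 promoters of regulatory genes (76.2%) and in 5 of 16 promoters of core genes (31.2%). This motif was chosen after the promoters had been looked at, and the shares are a description with no test. The windows of Psmd8, Psmd2 and Psmd14 are shown because these regulatory genes had the highest change, a contrary array pattern and the lowest change in the comparison below. In each the capitals, CTTCCG, are the motif on the opposite strand. Psmd8 lies at chr7:29180664-29180709 on the - strand, Psmd2 at chr16:20651606-20651651 on the + strand and Psmd14 at chr2:61711560-61711605 on the + strand.
Psmd8: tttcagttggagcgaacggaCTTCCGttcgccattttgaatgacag
Psmd2: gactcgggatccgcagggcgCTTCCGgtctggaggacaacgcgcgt
Psmd14: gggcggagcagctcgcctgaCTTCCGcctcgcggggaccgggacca
The CCAAT box, bound by NF-Y, stood in 34.1% of the members' promoters and in 37.4% of all, 37.4% of those of tested genes and 38.4% at a mean of 10 or more. The core of the interferon-stimulated response element (GAAA, then NN, then GAAA) stood in 5 (12.2%), those of Psmb3, Psmd4, Psmd9, Psme1 and Psmg4, against 3.44% of all promoters, 2.72% of those of tested genes and 2.74% at a mean of 10 or more. A match describes letters in the window and is not a bound site.

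The transcripts of the proteasome were measured at nearly the same level with the miR-30a antisense oligonucleotide as with the scrambled one. Of the 47 genes, 44 passed the filter on dim genes (a mean log2 value of at least 4.559), and 0 of the 44 passed the test, limma with Benjamini-Hochberg adjustment over all 12633 genes tested and a threshold of 0.05. In the whole comparison 1.53% of genes passed (146 higher in antisense arrays, 1.16%, and 47 lower, 0.372%). With the replicate number as a block, 0 of the 44 passed, against 3.05% of all genes. At an unadjusted p under 0.05 there were 2 proteasome genes (4.55%), against 12.9% of all genes. Proteasome genes are bright, and at a mean of 10 or more these shares were 3.23% of 31 proteasome genes and 9.2% of 1718 tested genes. Of those 1718, 10 passed the test as higher and 4 as lower. The lowest adjusted p among the 44 was 0.298. RNA of a whole culture cannot tell fewer cells of a type from less RNA per cell.

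The differences were small as well as uncalled. The log2 change, antisense minus scrambled, ranged from -0.045 for Psmd14 to 0.107 for Psmd8, and its median was 0.019, against 0.0084 over all genes tested. The median size of the change regardless of sign was 0.026, against 0.047 over all genes. Changes over 0.1 in size were seen in 2 of the 44 genes (4.55%), against 19.3% of all genes. At a mean of 10 or more the shares were 3.23% of the proteasome genes and 9.31% of the tested genes. The 95% intervals of the 44 genes all lay between -0.156 and 0.233, which is 0.897-fold to 1.175-fold. For none of the 44 were the antisense and scrambled arrays without overlap, against 3.92% of all genes tested.

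**Figure D1:**
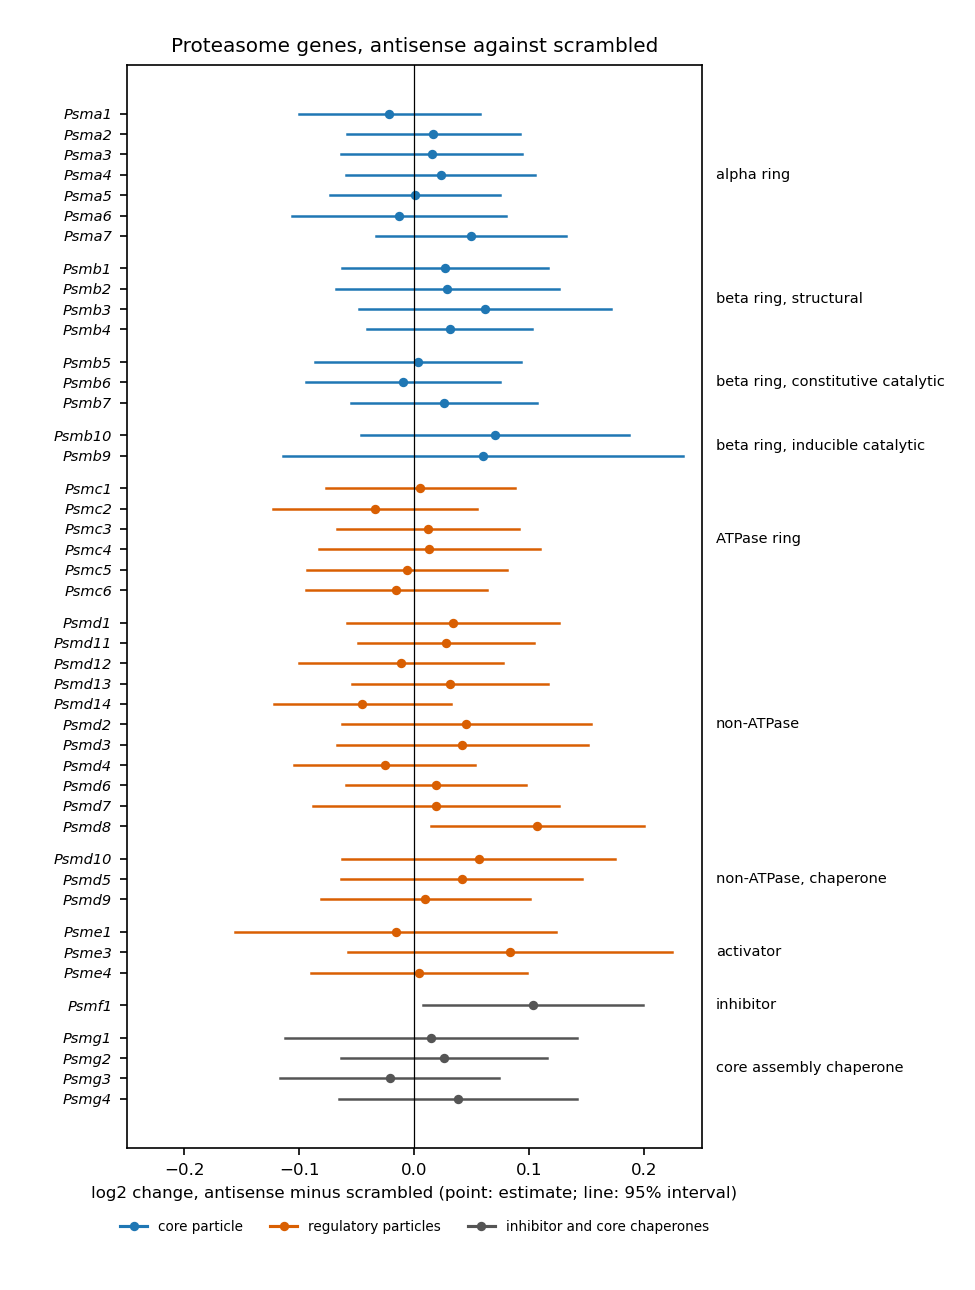
Log2 change of each tested proteasome gene (x axis, antisense minus scrambled, log2 units), one gene per row and grouped by role; points are limma estimates and lines their 95% intervals, with 5 arrays in each group. The intervals of 42 genes include 0, and only those of Psmd8 and Psmf1 do not.

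Proteasome transcripts also varied little between arrays of one group. Their median within-group SD was 0.055 on the log2 scale (0.022 to 0.148), against 0.086 over all genes tested. Part of this goes with brightness: the 31 proteasome genes with a mean of 10 or more had a median SD of 0.047, against 0.058 for the 1718 tested genes at or above that level. The median size of change was 0.022 for those 31 genes and 0.033 for the 1718. The standard errors of the changes in the 44 genes ran from 0.033 to 0.080.

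More proteasome genes lay above 0 than below it, 33 against 11 (75.0%, against 55.1% of all genes tested). Of the fits that left out 1 array, the one without scrambled array 1 showed the weakest leaning. Scrambled array 1 held the lowest of the 10 values for 25 of the 44 genes (56.8%), against 16.2% of all genes tested. Without scrambled array 1, 24 genes lay above 0 and 20 below (54.5%, against 54.3% of all genes), and the median change was 0.0024. The median over all genes in that comparison was 0.0074. Across the fits that left out each other array in turn, the median change of the proteasome genes stayed between 0.011 and 0.031, and the lower end came without antisense array 4, where 27 genes lay above 0 and 17 below.

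The arrays differed from each other in proteasome level more than the groups did. Relative to each gene's own mean over the 10 arrays, the median deviation of the 44 genes was -0.021, 0.015, 0.0033, 0.048 and 0.0067 in antisense arrays 1 to 5. In scrambled arrays 1 to 5 it was -0.063, 0.018, -0.0035, 0.047 and -0.014. The arrays numbered 4 were thus the highest of both groups and the arrays numbered 1 the lowest. In antisense array 4, 38 of the 44 genes lay above their own mean, and in scrambled array 4 it was 37. In antisense array 1 only 10 did, and in scrambled array 1 only 5. Over all 12633 genes tested, 7585 and 6181 lay above their own mean in antisense and scrambled array 4, and 5480 and 5981 in the arrays numbered 1. The labels do not say what the number marks, and the part of culture, extraction or labelling in this pattern was not tested.

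**Figure D2:**
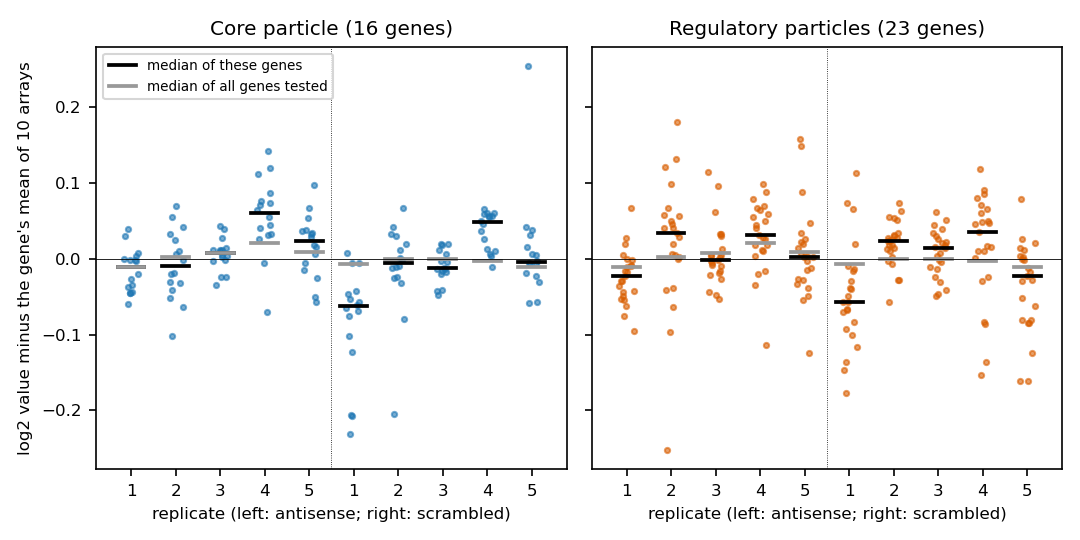
Deviation of each proteasome gene from its own mean over the 10 arrays (y axis, log2 units) by replicate number (x axis, antisense left and scrambled right of the dotted line), for 16 core genes and 23 regulatory genes. Black bars are medians of these genes and grey bars medians of all genes tested; both panels are lowest in scrambled array 1, with medians of -0.063 and -0.057.

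The core and the regulatory genes followed the arrays alike in part. In antisense array 4 the median deviation was 0.060 for the core genes and 0.032 for the regulatory genes. There 11 of the 16 core genes (68.8%) and 5 of the 23 regulatory genes (21.7%) had their highest value, against 15.8% of all genes tested. In antisense array 2 the core genes stood at -0.010 and the regulatory genes at 0.034. Pairing arrays by number, antisense was the higher one for 33, 18, 23, 28 and 32 of the 44 genes in pairs 1 to 5. These are 75.0%, 40.9%, 52.3%, 63.6% and 72.7%, against 48.9%, 49.8%, 53.0%, 57.8% and 57.7% of all genes tested. The genes higher in antisense in all 5 pairs were Psma7, Psmb4, Psmd8, Psmd11 and Psmf1, and Psmd4 was lower in antisense in all 5. The share of all genes tested with 1 direction in all 5 pairs was not counted.

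The core particle genes are described first. Of the 16 tested, 0 passed the test, 13 lay above 0 and 3 below, the median change was 0.024 and the range was -0.022 to 0.070. Their lowest adjusted p was 0.662, and their 95% intervals lay between 0.924-fold and 1.175-fold. Without scrambled array 1 the median was 0.0062, with 10 above 0 and 6 below (62.5% above, against 54.3% of all genes tested).

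The alpha ring genes, which form the gate of the core, had changes from -0.022 to 0.049 in the 7 that were tested. Psma7 had antisense values of 11.29, 11.32, 11.34, 11.37 and 11.28 and scrambled values of 11.24, 11.22, 11.28, 11.35 and 11.27. The groups overlapped, since scrambled array 4 lay above all antisense arrays but number 4. The log2 change was 0.049 (SE 0.038, limma adjusted p = 0.667). Psma1 was on the other side of 0, with 11.30 ± 0.035 in antisense arrays and 11.32 ± 0.040 in scrambled arrays (SD, n = 5 each; change -0.022, SE 0.036, adjusted p = 0.875). Psma4 had a change of 0.023 (SE 0.038, adjusted p = 0.875). Psma8 encodes the alpha subunit of the testis, and its probe set lay below the filter in both groups, at a mean of 3.77 in antisense and 3.79 in scrambled arrays.

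The structural beta genes, whose products have no active site, were Psmb1, Psmb2, Psmb3 and Psmb4. All 4 changes lay above 0, between 0.027 and 0.061, and none passed the test. Psmb3 had antisense values of 11.35, 11.36, 11.36, 11.42 and 11.40. Its scrambled values were 11.14, 11.38, 11.37, 11.41 and 11.29, so that 1 array, number 1, stood well under the others. The change was 0.061 (SE 0.050, adjusted p = 0.689), and without scrambled array 1 it was 0.018. Psmb4 was the steadiest of this group, at 12.06 ± 0.015 in antisense and 12.03 ± 0.028 in scrambled arrays (SD, n = 5 each). Its change was 0.031 (SE 0.033, adjusted p = 0.779). Psmb1 had a change of 0.027 (SE 0.041, adjusted p = 0.862).

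The constitutive catalytic genes encode the protease sites of the standard proteasome. Psmb5, the chymotrypsin-like subunit, had antisense values of 11.19, 11.29, 11.20, 11.23 and 11.27 and scrambled values of 11.13, 11.28, 11.23, 11.29 and 11.23. The groups lay over each other, with means of 11.23 in both (change 0.0033, SE 0.041, adjusted p = 0.988). The 95% interval of that change was -0.086 to 0.093. Psmb6, the caspase-like subunit, had antisense values of 11.33, 11.33, 11.36, 11.46 and 11.42 and scrambled values of 11.38, 11.41, 11.35, 11.42 and 11.40. Antisense arrays 4 and 5 were high and 1 and 2 low, a wider spread than in the scrambled group (change -0.010, SE 0.039, adjusted p = 0.955). Psmb7, the trypsin-like subunit, had antisense values of 12.02, 12.05, 12.02, 12.08 and 11.96 and scrambled values of 11.95, 11.99, 11.99, 12.03 and 12.04. Its highest value was in antisense array 4 and its lowest in scrambled array 1 (change 0.026, SE 0.038, adjusted p = 0.849).

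The inducible catalytic genes were dim or only moderately bright on these arrays. Psmb8 lay below the filter and was not tested, with antisense values of 4.15, 4.19, 4.36, 4.28 and 4.39 and scrambled values of 4.25, 4.19, 4.21, 4.15 and 4.32. Psmb9 had antisense values of 5.02, 5.05, 4.99, 4.91 and 5.08 and scrambled values of 4.75, 4.78, 4.97, 5.03 and 5.24. The scrambled values spanned the antisense ones on both sides, and the change was 0.059 (SE 0.080, adjusted p = 0.833). Its 95% interval of -0.115 to 0.233 was the widest of the 44 genes. Psmb10 had antisense values of 7.43, 7.51, 7.52, 7.62 and 7.48 and scrambled values of 7.27, 7.51, 7.43, 7.53 and 7.47. Scrambled array 1 was the low one again, and the change of 0.070 (SE 0.054, adjusted p = 0.662) was 0.027 without it. Psmb11, the catalytic subunit of thymic epithelium, was below the filter at 3.54 in antisense and 3.42 in scrambled arrays.

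**Figure D3:**
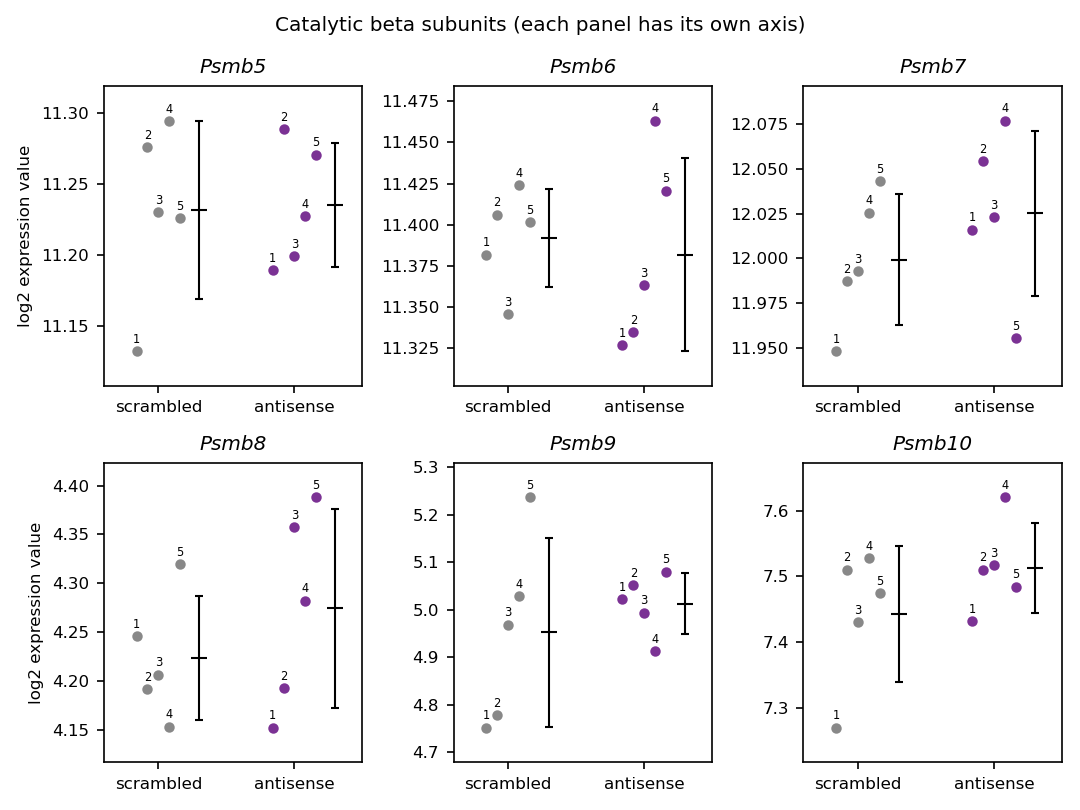
Log2 expression value (y axis, a separate scale in each panel) of the catalytic beta genes in each array, with replicate numbers beside the points, scrambled in grey and antisense in purple; bars are the mean and SD of 5 arrays. The groups overlap in every panel, and Psmb8 lies below the filter of 4.559.

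The regulatory particle genes gave the widest range. Of the 23 tested, 0 passed the test, 16 lay above 0 and 7 below, and the median change was 0.013. The range was -0.045 to 0.107, the lowest adjusted p was 0.298, and the 95% intervals lay between 0.897-fold and 1.168-fold. Without scrambled array 1 the median was -0.0009, with 11 above 0 and 12 below (47.8% above, against 54.3% of all genes tested).

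The 6 ATPase genes, Psmc1 to Psmc6, were split evenly around 0, with 3 above and 3 below, changes from -0.034 to 0.013 and a median of -0.0004. Psmc2 had the lowest of these, with antisense values of 11.55, 11.60, 11.58, 11.60 and 11.56 and scrambled values of 11.53, 11.65, 11.60, 11.71 and 11.56. All 5 antisense arrays lay below the scrambled mean of 11.61, yet scrambled array 1 was lower than any of them (change -0.034, SE 0.041, adjusted p = 0.805). Psmc3 had a change of 0.012 (SE 0.037, adjusted p = 0.945) and Psmc6 of -0.016 (SE 0.036, adjusted p = 0.92).

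Among the 11 non-ATPase genes, 8 lay above 0 and 3 below, with a median change of 0.027. Psmd8 encodes a subunit of the lid, the part of the regulatory particle that holds the deubiquitinase, and it had the highest change of all 44 genes. Its antisense values were 11.48, 11.55, 11.55, 11.56 and 11.58, and its scrambled values were 11.31, 11.51, 11.44, 11.46 and 11.46. Only antisense array 1 and scrambled array 2 overlapped. The means were 11.54 ± 0.037 and 11.44 ± 0.074 (SD, n = 5 each), and the change of 0.107 (SE 0.043, 95% interval 0.015 to 0.199) had a limma adjusted p of 0.298. Leaving out 1 array at a time gave adjusted p-values of 0.247 to 0.46 and, without scrambled array 1, a change of 0.076.

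Psmd14 encodes the deubiquitinase of the lid, which cuts ubiquitin chains from substrates, and it had the lowest change. Its antisense values were 11.89, 11.82, 11.88, 11.87 and 11.86 and its scrambled values 11.87, 11.89, 11.93, 11.97 and 11.89. Antisense array 2 was the lowest of the 10 and scrambled array 4 the highest, with overlap between (change -0.045, SE 0.035, adjusted p = 0.671). Psmd4, a ubiquitin receptor, was 11.59 ± 0.040 in antisense and 11.61 ± 0.036 in scrambled arrays (SD, n = 5 each; change -0.026, SE 0.036, adjusted p = 0.841). It was lower in antisense in every pair, and the ranges of the groups overlapped.

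Psmd2, a scaffold of the base that also binds ubiquitin-like domains, ran against the common array pattern. Its antisense values were 11.17, 11.25, 11.19, 11.17 and 11.11, and its scrambled values were 11.22, 11.19, 11.19, 11.07 and 10.99. It was low in scrambled arrays 4 and 5 and not in scrambled array 1 (change 0.045, SE 0.050, adjusted p = 0.787). Psmd3, a lid subunit, had the same layout in the scrambled group, with 10.27, 10.21, 10.25, 10.04 and 10.11. Psmd3 was picked out for its array pattern after its values had been seen.

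Psmd11, a lid subunit that is limiting for assembly in some stem cells, had 7 probe sets above the filter, the most of any proteasome gene. Its brightest probe set had a change of 0.027 (SE 0.035, adjusted p = 0.821), and the others ranged from -0.148 to 0.066. The lowest of these was a dim probe set with a mean of 5.02. The assembly chaperones of the base, Psmd5, Psmd9 and Psmd10, had changes of 0.041, 0.0094 and 0.056. Psmd10, also known as gankyrin, a protein first described in liver cancer, had antisense values of 8.95, 8.91, 9.12, 9.04 and 9.17 and scrambled values of 8.87, 8.98, 8.999, 9.02 and 9.04. Antisense arrays 3 and 5 were high and array 2 was low (change 0.056, SE 0.055, adjusted p = 0.751). Psmd5 had an adjusted p of 0.803.

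The activators cap the core in place of the ATPase-bearing particle. Psme1, an interferon-inducible activator subunit, had antisense values of 9.54, 9.30, 9.55, 9.61 and 9.70 and scrambled values of 9.53, 9.49, 9.53, 9.60 and 9.63. Antisense array 2 stood low and array 5 high (change -0.016, SE 0.065, adjusted p = 0.956). The partner gene Psme2 has no value here, because its probe set was annotated to 2 symbols, Psme2 and Psme2b. Psme3, the nuclear activator, had antisense values of 9.23, 9.46, 9.37, 9.37 and 9.15 and scrambled values of 9.25, 9.35, 9.32, 9.14 and 9.11. Its spread within groups was among the wider ones, and the change of 0.083 (SE 0.065, adjusted p = 0.672) was not shared by its other probe set above the filter, at -0.0054. Psme4, an activator linked to histone degradation, had 10.27 in scrambled array 1 and 10.08 to 10.18 in the other scrambled arrays (change 0.0041, SE 0.043, adjusted p = 0.986).

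The inhibitor gene Psmf1 encodes a protein that blocks the core in the test tube. Its antisense values were 9.02, 9.06, 9.09, 9.18 and 9.10 and its scrambled values 8.87, 9.005, 9.01, 9.06 and 8.99. All antisense arrays lay above the scrambled mean of 8.99, and the groups overlapped only through scrambled array 4, the highest of that group. The change was 0.103 (SE 0.044, 95% interval 0.0075 to 0.199, adjusted p = 0.34). Its 4 probe sets above the filter ranged from -0.058 to 0.103, so that they did not share a sign. The negative one was the dimmest, at a mean of 5.17, and the others lay between 0.059 and 0.103. The core assembly chaperones Psmg1 to Psmg4 had changes from -0.021 to 0.038, with 3 above 0 and 1 below. Psmg1 had a change of 0.014 (SE 0.059, adjusted p = 0.957), and Psmg4 of 0.038 (SE 0.048, adjusted p = 0.817).

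**Figure D4:**
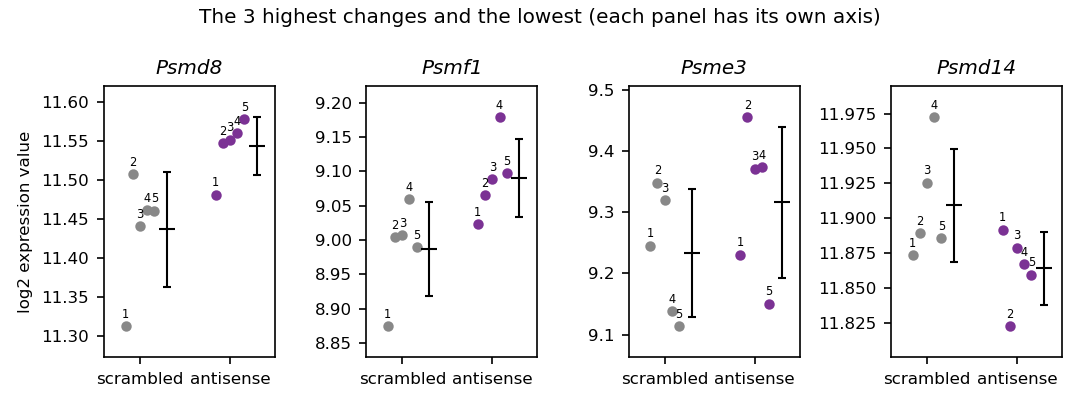
Log2 expression value (y axis, a separate scale in each panel) of the proteasome genes with the 3 highest changes and the lowest change, in each array, with replicate numbers beside the points, scrambled in grey and antisense in purple; bars are the mean and SD of 5 arrays. In Psmd8 and Psmf1 scrambled array 1 is the lowest point, at 11.31 and 8.87.

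The other probe sets of these genes gave a check on the measurement. The 47 genes had 80 probe sets above the filter, with changes from -0.148 to 0.107. Of the 22 genes with several probe sets above the filter, 13 had changes of both signs. A change of this size therefore did not carry its sign from one probe set of a gene to the next in most of them.

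**Figure D5:**
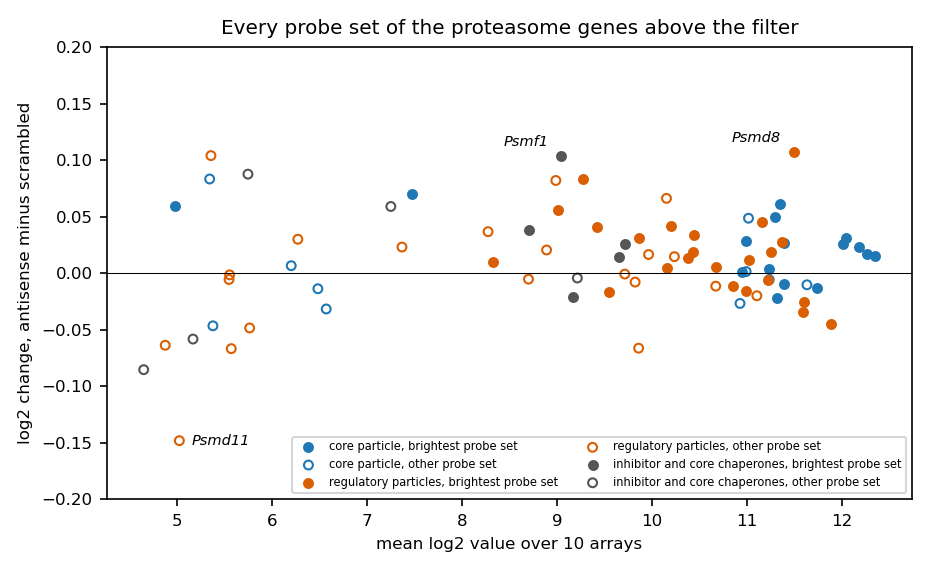
Log2 change, antisense minus scrambled (y axis), against the mean log2 value over 10 arrays (x axis) for the 80 probe sets of proteasome genes above the filter; filled points are the brightest probe set of a gene and open points its other probe sets. The changes spread more widely at low means, from -0.148 in a dim Psmd11 probe set, than among the bright probe sets.

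The 2 genes that share only the name pattern were also not called. Psmc3ip had a change of -0.048 (adjusted p = 0.832) and Psme3ip1 of 0.030 (adjusted p = 0.844).

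Genes that work beside the proteasome were listed apart from it. Of 29 tested genes that assemble it, regulate it or supply it with ubiquitin and substrates, 0 passed the test, 17 lay above 0 and 12 below, and the median change was 0.012. At an unadjusted p under 0.05 there were 7 of the 29 (24.1%), against 12.9% of all genes tested. The list was chosen with earlier results of these data known, so this share is a description only. Nfe2l1 stood at 9.71 ± 0.073 in antisense and 9.71 ± 0.065 in scrambled arrays (SD, n = 5 each; change -0.0045, SE 0.046, adjusted p = 0.985). Pomp, a chaperone of core assembly, had a change of 0.040 (SE 0.038, adjusted p = 0.739).

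Odc1, ornithine decarboxylase, is a substrate that the proteasome degrades without ubiquitin. Its antisense values were 11.82, 11.97, 11.82, 11.67 and 11.60 and its scrambled values 11.60, 11.67, 11.65, 11.56 and 11.44. It was higher in antisense in all 5 pairs, and both groups were highest in array 2 and lowest in array 5. The change of 0.190 (SE 0.068) had an adjusted p of 0.24, and with the replicate number as a block it passed the test (adjusted p = 0.0401). Ngly1, the deglycosylase that processes Nfe2l1, had a change of -0.172 (SE 0.069, adjusted p = 0.3), with all 5 antisense arrays below the scrambled mean of 8.55. Midn, which brings proteins to the proteasome without ubiquitin, had a change of 0.179 (SE 0.073, adjusted p = 0.311). Ubqln1, a shuttle for ubiquitin-tagged proteins, was the only one of the 29 whose groups did not overlap, at 10.95 to 11.02 in antisense and 10.83 to 10.94 in scrambled arrays (change 0.092, SE 0.038, adjusted p = 0.32). Its count of 1 in 29 stands against 3.92% of all genes tested.

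Proteasome products feed antigen presentation, and of 12 tested genes of that pathway 0 passed the test, 6 lay above 0 and 6 below, with a median change of -0.0017. Tap2, a subunit of the peptide transporter, had the lowest change at -0.133 (SE 0.070, adjusted p = 0.469). Irf1, the interferon-induced factor that activates immunoproteasome genes, had a change of -0.069 (SE 0.047, adjusted p = 0.603). Erap1, a peptide-trimming enzyme, had 0.082 (SE 0.069, adjusted p = 0.702), and Tapbp, which loads peptides, had -0.066 (SE 0.062, adjusted p = 0.74).

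The arrays had medians of 5.21 to 5.24 over all probe sets. The epithelial markers Krt8, Krt18 and Krt19 had group means of 13.48 to 13.77 and Hnf4a 10.67 to 10.69, while Alb, a marker of mature hepatocytes, was at 4.70 to 4.73 and Prox1 lay below the filter. Of 13 tested hepatoblast and liver epithelium markers 0 passed the test without the block, and 1 passed with the replicate number as a block. This was Ttr, transthyretin, a plasma protein made by hepatocytes, at 7.62 ± 0.57 in antisense and 8.79 ± 0.51 in scrambled arrays (SD, n = 5 each). Its change was -1.17 (SE 0.27, adjusted p = 0.0574, and 0.000812 with the block), it was lower in antisense in all 5 pairs, and its part in the proteasome values was not tested. Without antisense array 5 or scrambled array 2, the adjusted p of Ttr was 0.0368 or 0.0469, and with the filter at the 60th percentile it was 0.0422. In all other settings without the block Ttr did not pass. There its limma adjusted p ran from 0.0511 with median centring to 0.151 with the trended robust prior. Sox9 was the only one of the 13 whose groups did not overlap, against 3.92% of all genes tested. Its change was 0.167 (limma adjusted p = 0.0662, and 0.0571 with the block). Afp, of the same list, was at 6.43 in antisense and 6.33 in scrambled arrays. Markers of mesenchymal cells (5 tested of 6) and endothelial cells (3 tested of 6) had 0 passing, and Col1a1, Pecam1, Cdh5 and Tek lay below the filter. Of 8 blood and macrophage markers 4 were tested and 1 passed, Cd68, a lysosomal protein, with a change of 0.394 (adjusted p = 0.0176), while Ptprc and Adgre1 lay below the filter. Without antisense array 3 or 4 the adjusted p of Cd68 was 0.0523 or 0.0551. The mean level of the blood and macrophage list ran from 5.38 to 5.505 over antisense arrays and from 5.25 to 5.44 over scrambled arrays, and its part in the proteasome values was not tested.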

How the data were processed

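Total RNA of 10 samples (5 antisense, 5 scrambled, by their titles) was measured on single-colour Affymetrix arrays, whose number limits the precision. The authors deposited log2 values for each probe set on each array; the scale was read from the values, which run from 1.98 to 14.2. How they were summarised, background-corrected and normalized is not given in the sources used here, and they were not changed further.

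Of 45101 probe sets, 64 array controls were dropped; 34945 carried 1 gene symbol in the platform annotation, 932 several and 9160 were not listed, and only those with 1 symbol were used (34741 matched a current gene by identifier). The brightest probe set by mean over 10 arrays stood for each of 18193 genes. Genes with a mean under 4.559, the 40th percentile of probe set means, were left out, which leaves 12633. The test was limma's moderated linear model (limma 3.58.1, R 4.3.3; two-sided, lmFit then eBayes, Benjamini-Hochberg over all genes tested, threshold 0.05). Tables and figures were made with Python 3.11.15, pandas 2.3.3 and matplotlib 3.10.9. Promoters and miRNAs were matched by symbol or name to RefSeq tables (GRCm38.p6).

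The proteasome genes and the lists were chosen with earlier results of these data known. The named genes were, by role, the 3 smallest p-values and a fixed choice of catalytic, activator, chaperone and receptor genes; of each pathway list, the 4 smallest p-values with Nfe2l1 and Pomp. Over genes, deviations from the group mean correlated between arrays of equal number at 0.172, 0.377, 0.112, 0.152 and 0.335, and between other arrays at -0.312 to 0.231. The correlations of 0.172, 0.112 and 0.152 lie within the range of the other arrays, so these values do not establish pairs. The numbers are those of the sample titles, which do not say that equal numbers belong together. Taking equal numbers as pairs was therefore a choice made here. The block results and the counts over pairs rest on that choice. In simulated data for this comparison (12633 genes, 200 changed, 10 runs) the procedure recovered 58.9% of log2 changes of 0.25, 95.4% of 0.5 and 99.7% of 1, with 4.87% of calls false. The simulated noise was drawn for each gene apart, with no shift shared by the genes of an array, so these rates may not hold here. Changes under 0.25 were not simulated, and the highest proteasome change was 0.107. Alternatives tried were the replicate number as a block, quantile normalization, median centring, other filters, the mean of all probe sets of a gene, a trended robust prior, and leaving out each array.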

Additional observations from a re-analysis of the deposited data

Results flagged for a closer look

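Psmc3, an ATPase subunit, had 1 array that stood apart in its group: scrambled array 1 at 10.9622, with the nearest other scrambled value at 11.0153. The gap was 0.732 of the group's range, above Dixon's critical value of 0.71 for 5 samples. Chance gives such a value in about 1 of every 20 groups. That is a higher rate than was seen, since this was the only one among the 82 groups of 5 examined. Those groups did not cover all proteasome genes. Outside them, Psmc4 had scrambled array 1 at 10.2726, with the nearest other scrambled value at 10.3718. Psmd13 had antisense array 1 at 9.8297, with the nearest other antisense value at 9.8773. The gaps of both were also above 0.71 of their group's range, so Psmc3 was not alone.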

How the results depend on the processing

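No proteasome gene, core or regulatory, passed the test under any of the 17 alternatives, in which the lowest adjusted p of a proteasome gene was 0.147, with the replicate block. The median change ran from 0.0024 to 0.0314 over the proteasome genes, from 0.0062 to 0.0328 over the core and from -0.0009 to 0.0265 over the regulatory genes, each time lowest without scrambled array 1. The count over all genes, 193, was 385 with the replicate block and 303 with an intensity trend and robust prior. Leaving out 1 array gave 92 to 201, with 95, 92 and 123 without antisense arrays 3, 4 and 5 and 101 without scrambled array 3. Apart from Odc1 and Ttr, the block changed no call of a gene named here. The cause of these differences was not tested. The uncalled change of a named proteasome gene turned its sign in 21 of 458 comparisons, in 10 of 27 genes, none of which had a change over 0.0274 in size. Psmd11 was -0.0219 with the mean of its probe sets. Signal over background limits Psma8, Psmb8 and Psmb11, which lay below the filter.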
